A study of Mus musculus with 15 samples.

Results

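The 9 genes of PPARα signalling and fatty acid oxidation described here, Creb3l3, Angptl4, Pdk4, Cpt1a, Acadm, Acadl, Acaa2, Ehhadh and Cyp4a10, were followed through peanut sensitization and challenge in mouse jejunal epithelium. They were chosen by name, as listed PPARα targets and oxidation enzymes, and all 9 were found among the 52844 genes to which the deposited transcripts were summed. All 9 were also among the 14968 genes with enough counts to be tested. The tissue was jejunal epithelium of CC027/GeniUnc mice, a Collaborative Cross strain known for reactions to oral peanut, read as polyadenylated RNA in 15 libraries of paired 151 bp reads. The 5 groups held 3 libraries each. PBS mice received PBS by gavage and no peanut, and sensitized controls received peanut extract weekly at 2 mg for 3 weeks and then 5 mg in week 4, with no challenge. The other 3 groups were sensitized in the same way, challenged by gavage with 12 mg of peanut extract, and sampled 30, 60 or 120 min later. A length of 4 cm of jejunum, starting 6 cm past the pylorus, was held for 75 min at room temperature with 0.5 mM DTT and 2 mM EDTA to free the epithelium. Neither PBS mice that were challenged nor sensitized mice with a mock gavage were analysed here, so peanut, gavage, handling and time of day cannot be told apart. Ages were not given in the labels used here.

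PPARα is a nuclear receptor that fatty acids activate. With its partner RXR it binds pairs of AGGTCA half-sites next to genes that take up, import and burn fatty acids, and in the small intestine it is known to respond to dietary fat and to fasting. The 9 genes cover the steps that follow. Creb3l3 is a transcription factor of liver and intestine, held in the endoplasmic reticulum membrane until it is cleaved, and acts with PPARα on lipid genes. Cpt1a makes the acylcarnitines that enter mitochondria, and Acadl, Acadm and Acaa2 carry out steps of β-oxidation there. Ehhadh is the bifunctional enzyme of peroxisomal β-oxidation, and Cyp4a10 hydroxylates fatty acids at their far end. Pdk4 shuts off pyruvate dehydrogenase, which spares glucose, and Angptl4 is a secreted inhibitor of lipoprotein lipase.

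RefSeq promoter windows of GRCm38.p6, reaching from 250 bases before to 50 bases after a transcription start, were at hand for 6 of the 9 genes, as 7 windows. They were searched on both strands for the half-site AGGTCA, and for a direct repeat of it, 2 copies in 1 direction with 1 base between them, which contains the half-site. A half-site was in 3 of the 7 windows, against 16.3% of all 32851 windows of the same length. The direct repeat was in 0 of the 7 and in 0.0396% of all windows, too rare for 7 windows to tell them from others. Only exact copies were searched, so pairs with changed bases, or outside the windows, would be missed. The 3 windows with a half-site are shown, and each holds 1 exact copy of it. That of Pdk4, which has no half-site in this stretch, is shown for comparison. Creb3l3 has another window at the annotated 5′ end of the gene, chr10:81098823-81099122, which has no half-site and is not shown. Sequences run 5′ to 3′ on the strand of the gene, and capitals mark the half-site, which reads TGACCT where it lies on the other strand. It begins at position -249 from the start in Acadm, at -94 in Cpt1a and at -202 in Creb3l3. The Cpt1a window, like the Creb3l3 window shown, lies inside the annotated gene, which for Cpt1a begins at chr19:3322334. These matches describe letters and not binding, which was not measured.
Acadm, chr3:153944594-153944893, minus strand: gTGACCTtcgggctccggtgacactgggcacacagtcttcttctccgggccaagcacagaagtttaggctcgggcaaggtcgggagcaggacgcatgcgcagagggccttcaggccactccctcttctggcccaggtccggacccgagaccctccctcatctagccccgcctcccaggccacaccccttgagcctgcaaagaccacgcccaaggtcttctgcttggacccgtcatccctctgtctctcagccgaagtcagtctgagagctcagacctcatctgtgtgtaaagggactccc
Cpt1a, chr19:3323051-3323350, plus strand: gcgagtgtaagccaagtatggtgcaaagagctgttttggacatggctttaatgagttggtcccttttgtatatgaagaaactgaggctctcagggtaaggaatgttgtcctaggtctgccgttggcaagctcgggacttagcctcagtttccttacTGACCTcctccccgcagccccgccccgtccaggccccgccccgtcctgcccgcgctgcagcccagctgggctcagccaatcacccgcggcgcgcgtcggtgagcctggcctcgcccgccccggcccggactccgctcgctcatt
Creb3l3, start inside the gene, chr10:81092542-81092841, minus strand: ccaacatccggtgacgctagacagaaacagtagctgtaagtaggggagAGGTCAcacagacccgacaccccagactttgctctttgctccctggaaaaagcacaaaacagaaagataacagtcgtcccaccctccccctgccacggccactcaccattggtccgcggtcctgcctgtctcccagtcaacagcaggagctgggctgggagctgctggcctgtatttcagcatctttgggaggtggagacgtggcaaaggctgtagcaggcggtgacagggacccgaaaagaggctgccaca
Pdk4, chr6:5496229-5496528, minus strand: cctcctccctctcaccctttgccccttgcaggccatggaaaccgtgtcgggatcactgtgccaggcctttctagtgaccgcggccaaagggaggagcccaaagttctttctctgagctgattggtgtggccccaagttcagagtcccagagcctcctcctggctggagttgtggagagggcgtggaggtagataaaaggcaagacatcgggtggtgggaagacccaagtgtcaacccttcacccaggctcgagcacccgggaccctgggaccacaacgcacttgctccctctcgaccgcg

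Depth ran from 15661513 to 22691349 estimated counts per library, and mitochondrially encoded transcripts took 13.8% to 33.2% of them. Levels within a gene are given as CPM, counts relative to the scaled library size, and levels between genes as TPM, which is also per transcript length. The isolates were epithelial: 10 of 10 epithelial markers were measured in every group and summed to 12600 to 17600 CPM per library. Of 6 adipocyte markers, Adipoq, Cfd, Lep and Retn had no count in any library, and the list summed to at most 1.16 CPM. Other cell types differed between groups. Summed brush border markers ran from 16900 to 23100 CPM in the sensitized controls and from 13100 to 16200 at 30 min, and summed B and plasma cell markers from 1080 to 1690 CPM in the sensitized controls and from 142 to 480 at 120 min. Replicate 1 of the 30 min group stood apart with 191 CPM of stromal and endothelial markers, against at most 13.7 CPM elsewhere. Replicate 3 of the 60 min group held the 33.2% of mitochondrially encoded transcripts, and its counts differed most from those of its group, with a chi-square per degree of freedom of 236 and 135 against replicates 1 and 2, where no other pair of replicates passed 97.6. In bulk RNA, fewer cells of a type and less RNA per cell cannot be told apart. Replicate numbers only name libraries, and as the labels do not state that each library is a separate mouse, p-values measure the spread between these libraries.

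All 9 genes were expressed in the jejunal epithelium, and their levels spanned a wide range. On the TPM scale, over the 15 libraries, Creb3l3 was the most abundant at 147 ± 54.0 (SD, n = 15), followed by Acaa2 at 108 ± 25.3 and Acadl at 107 ± 29.4. Cpt1a stood at 74.5 ± 19.1, Acadm at 57.4 ± 14.0, Pdk4 at 34.8 ± 18.7 and Ehhadh at 32.9 ± 7.13. Angptl4 at 17.6 ± 13.4 and Cyp4a10 at 4.33 ± 2.98 were the lowest. Acaa2 and Acadl, and likewise Pdk4 and Ehhadh, differed by much less than their SD, while the gaps from Acadl to Cpt1a, from Acadm to Pdk4 and from Ehhadh to Angptl4 were wider than the SD of either neighbour. The sums include retained-intron forms. For Creb3l3 these were Creb3l3-203 and Creb3l3-204, at 33.3 and 14.7 TPM on average, and its protein-coding Creb3l3-201 alone, at 99.3 TPM, was below Acaa2 and Acadl. Likewise Pdk4-201 alone, at 29.9 TPM, was below Ehhadh. The genes also differed in how much they varied. From the lowest to the highest library, CPM spanned 8.49-fold for Cyp4a10, 6.03-fold for Angptl4 and 3.72-fold for Pdk4, but only 1.55-fold for Ehhadh and 1.79-fold for Acadm. Within groups, the SD of log2 CPM was 1.0 for Cyp4a10 and 0.636 for Pdk4, against a median of 0.283 over all genes tested, and 0.179 for Acadm.

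**Figure D1:**
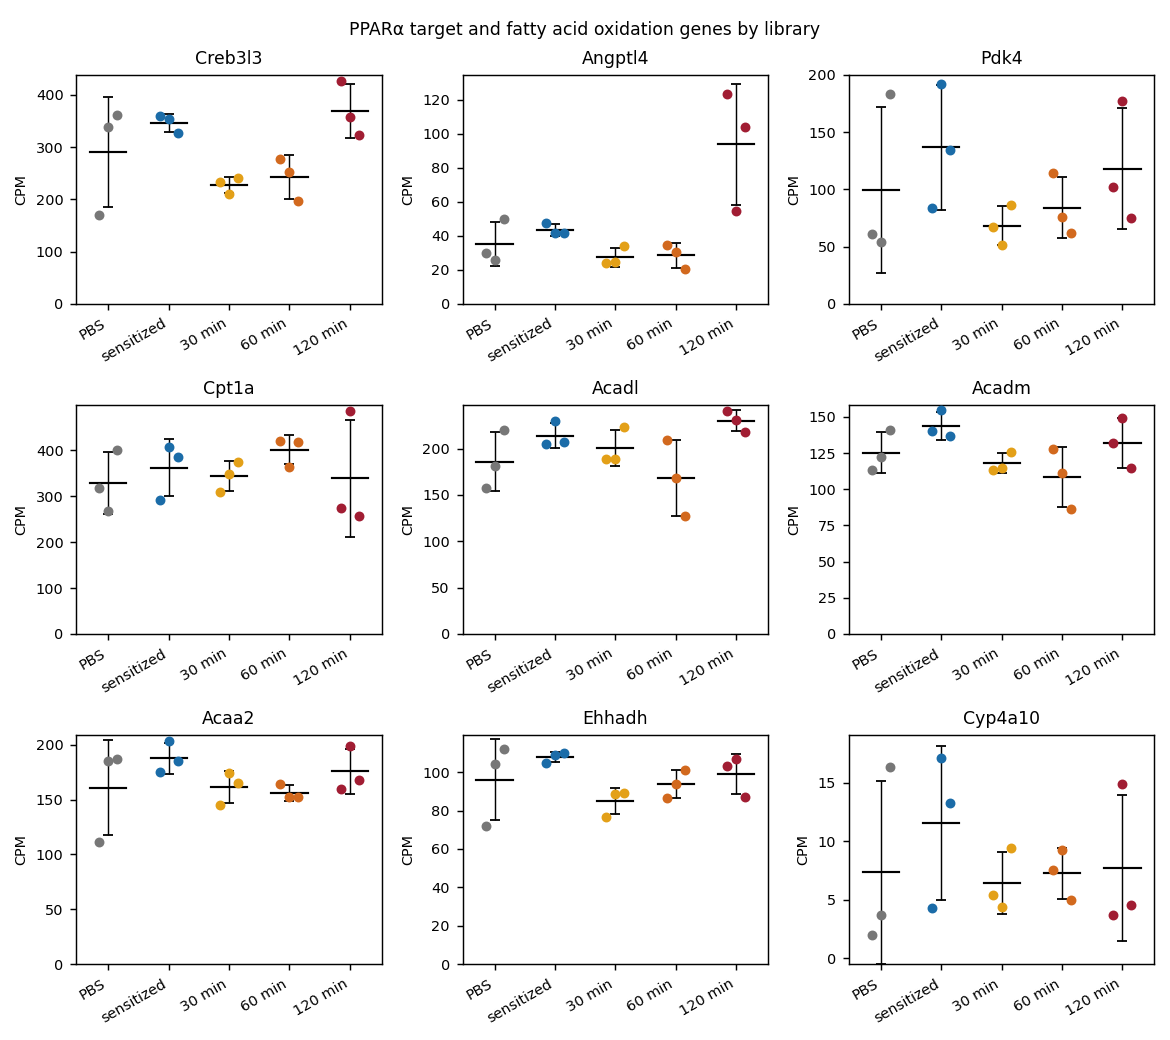
Level of each gene in CPM (vertical axis) in the 5 groups (horizontal axis), with 1 point per library, a line at the group mean and a bar of 1 SD. Angptl4 at 120 min lies above all libraries of the other groups, while Pdk4 and Cyp4a10 spread widely within the PBS, sensitized and 120 min groups.

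Between the groups, 1 of the 9 genes passed the edgeR test and the other 8 did not in any comparison. That gene was Angptl4, which rose late, between 60 and 120 min after challenge. Tests were edgeR quasi-likelihood tests with Benjamini-Hochberg adjustment over all genes tested, called at an adjusted p under 0.05. Sensitization alone called 0 of the 9 genes, with 0% of all genes called. All 9 differences between sensitized controls and PBS mice were positive but small, with a median log2 difference of 0.22 against 0.01 over all genes, of which 51.5% were positive. The libraries of the 2 groups overlapped for all 9 genes, while 7.98% of all genes showed no overlap, and 0 of the 9 reached an unadjusted p under 0.05, against 1.42% of all genes. DESeq2 and limma-voom also called 0 of the 9. The sizes rested in part on replicate 1 of the PBS mice, without which the median was 0.11, Acaa2, Ehhadh and Creb3l3 differed by 0.01, 0.00 and -0.02, and 8 of the 9 were positive.

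At 30 min after challenge, 0 of the 9 genes were called, with 0% of all genes called, although all 9 log2 differences from the sensitized controls were negative, with a median of -0.35 against 0.01 over all genes. Against the PBS mice, 3 of the 9 differences at 30 min were positive, led by Acadl at 0.11 and Cpt1a at 0.06, and the median was -0.18. At 60 min, 0 of the 9 were called, with 0.00668% of all genes called. There 8 of the 9 differences were negative, with a median of -0.41 against -0.02 over all genes, and Cpt1a was the exception at 0.15. The 60 min median was -0.14 against the PBS mice, and -0.26 against the sensitized controls without replicate 3 of the 60 min group. An unadjusted p under 0.05 was reached by 3 of the 9 genes at 30 min and by 3 at 60 min, and by 5.04% and 12.6% of all genes. DESeq2 and limma-voom called 0 of the 9 at either time. Acadm, Acaa2, Ehhadh, Angptl4 and Creb3l3 lay lower at 30 min in all 3 libraries than in every sensitized control, as did 7.84% of all genes. The same separation at 60 min held for these 5 genes and for 9.14% of all genes. Both comparisons use the same 3 sensitized controls, whose libraries lay close together for Ehhadh, Angptl4 and Creb3l3, and for all 5 genes the early libraries overlapped those of the PBS mice. All 19 brush border markers also had negative differences at 30 min, with a median of -0.41, and 15 of 19 at 60 min, with a median of -0.1, and the 10 epithelial markers were negative in 9 cases at 30 min and in 10 at 60 min. Markers of crypt proliferation were positive in 16 of 17 cases at 30 min and in 15 of 17 at 60 min, with medians of 0.61 and 0.48, and all 7 tested Paneth cell markers were positive, with medians of 0.62 and 0.63. All 5 tested erythroid markers were negative, with medians of -2.05 and -1.19. None of these markers was called at either time. With the brush border level as a covariate, all 9 genes were again negative at 30 min, with a median of -0.32, and 8 of the 9 at 60 min, with a median of -0.42. The part of the other cell types in the lower levels was not tested.

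At 120 min the differences were mixed. Against the sensitized controls 0 of the 9 genes were called by edgeR, with 1.26% of all genes called, and 3 of the 9 differences were positive, with a median of -0.1. On the TPM scale, which has no TMM scaling, the 120 min mean was higher for 8 of the 9, with a median log2 ratio of 0.1, where the median over all genes was itself 0.21. An unadjusted p under 0.05 was reached by 1 gene and by 17.7% of all genes, and that gene was Angptl4, which DESeq2 called and limma-voom did not. Against 60 min, 1 of the 9 genes was called, with 1.12% of all genes called, and 8 of the 9 differences were positive, with a median of 0.28. Without replicate 3 of the 60 min group 7 of the 9 were positive, with a median of 0.13. Acadl, Angptl4 and Creb3l3 lay higher at 120 min than in any 60 min library, as did 10.2% of all genes. Against 30 min, 1 of the 9 was called, with 1.01% of all genes called, and Angptl4 and Creb3l3 lay higher in all libraries, as did 12.1% of all genes. Between 60 and 30 min, 0 of the 9 genes were called, with 0% of all genes called, 0 reached an unadjusted p under 0.05, against 4.46% of all genes, and DESeq2 and limma-voom called 0. Epithelial and brush border markers were also mostly higher at 120 min. Between 60 and 120 min 16 of the 19 brush border markers were positive, with a median of 0.27, and 9 of the 10 epithelial markers, with a median of 0.38, of which Krt20 was called. None of the 19 brush border markers was called. Their sums overlapped, at 12600 to 21400 CPM at 60 min and 19100 to 26900 CPM at 120 min. Between 30 and 120 min all 19 brush border markers were positive, with a median of 0.5. In fits with the brush border level as a covariate, 7 of the 9 differences were positive against 60 min, with a median of 0.31. Against 30 min all 9 were positive in such fits, with a median of 0.24. The part of other epithelial content in these differences of the 9 genes was not tested. The average of all 3 times, set against sensitized controls, also gave 0 called genes out of the 9, with 0% of all genes called, 1 at an unadjusted p under 0.05 against 10.5% of all genes, and 0 by DESeq2 and by limma-voom.

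**Figure D2:**
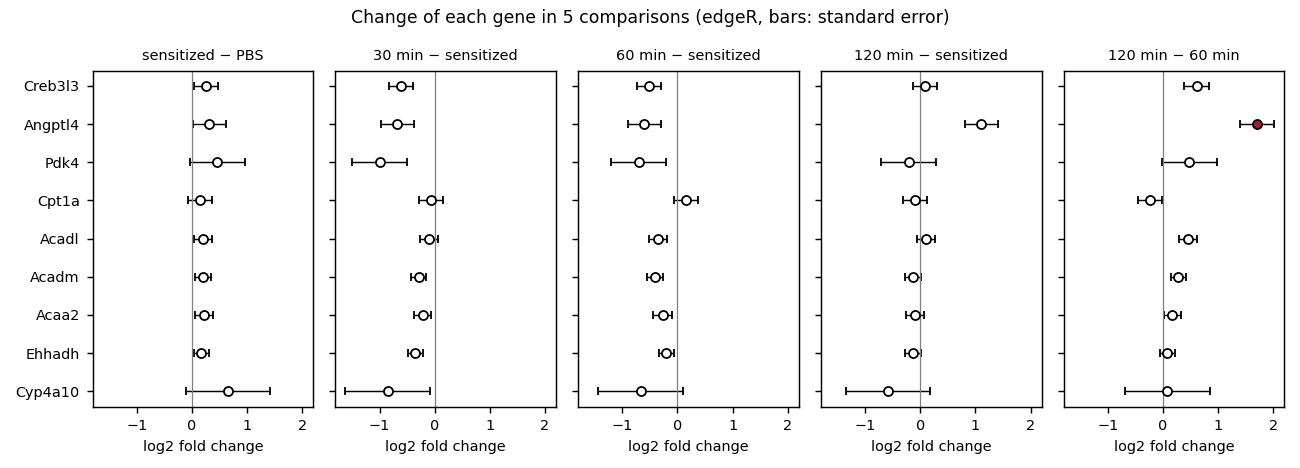
Log2 fold change of each gene (horizontal axis) in 5 comparisons (panels), with the standard error as a bar; the filled point passed the edgeR test at an adjusted p under 0.05. The only filled point is Angptl4 at 120 against 60 min, at 1.71.

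Angptl4 (chr17:33773750-33781830, minus strand, mm10) is a secreted inhibitor of lipoprotein lipase and a classical PPAR target. In replicates 1, 2 and 3, its level was 29.9, 25.6 and 49.6 CPM in PBS mice and 47.4, 41.4 and 41.5 CPM in sensitized controls. It was 23.7, 24.3 and 33.7 CPM at 30 min and 34.7, 30.7 and 20.3 CPM at 60 min, and then 123, 54.3 and 104 CPM at 120 min. All 3 libraries at 120 min were above all 12 others, and replicate 2 was the nearest to them. The share of all genes with this separation from all 12 was not computed. Above the sensitized controls alone, 13.3% of all genes lay without overlap. The rise from 60 to 120 min was 3.28-fold, a log2 fold change of 1.71 ± 0.31 (SE) with an edgeR adjusted p of 0.0272, and from 30 to 120 min it was 3.45-fold, 1.78 ± 0.31 with an adjusted p of 0.031. The joint test of the 3 times against the sensitized controls also called Angptl4, and 0.521% of all genes, with an edgeR adjusted p of 0.0311. That call was lost in 8 of 12 fits without 1 library (adjusted p up to 0.199), without the filter on low counts (0.0582) and with the brush border covariate (0.0916). The joint test called 78 of all genes in the main fit and 0 to 50 in those 8 fits. It called 386 without the filter and 46 with the covariate. Against the sensitized controls alone, the 120 min level was 2.16-fold, 1.11 ± 0.30 on the log2 scale, with an edgeR adjusted p of 0.0903, which missed the threshold. Ordered by mean, the groups ran from 27.2 ± 5.59 CPM at 30 min (SD, n = 3) over 28.6 ± 7.43 at 60 min, 35.0 ± 12.8 in PBS mice and 43.4 ± 3.44 in sensitized controls to 93.7 ± 35.3 at 120 min. Each step of this order but the last was smaller than the spread of the groups.

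Leaving out single libraries ended the edgeR call for Angptl4 in 4 of 6 cases in each of the pairs of times, though the fold change stayed positive. Against 60 min, it was lost without replicate 1 (1.44, adjusted p 0.132) or replicate 3 (1.61, adjusted p 0.0765) of the 120 min group, and without replicate 2 (1.74, adjusted p 0.0865) or replicate 3 (1.5, adjusted p 0.127) of the 60 min group. Against 30 min, it was lost without replicate 1 (1.52, adjusted p 0.138) or replicate 3 (1.7, adjusted p 0.0713) of the 120 min group, and without replicate 1 (1.68, adjusted p 0.126) or replicate 2 (1.7, adjusted p 0.0699) of the 30 min group. Calls over all genes fell in these fits too. Against 60 min they went from 168 to 0 and 0 in the fits without a 120 min library. They went to 2 and 2 in those without a 60 min library. Against 30 min they went from 151 to 4 and 37, and without a 30 min library to 15 and 59. Without replicate 2 of the 120 min group the difference of Angptl4 from the sensitized controls was 1.37, with an edgeR adjusted p of 0.0271. Set against the mean of the brush border markers in the same library, log2 Angptl4 was -3.78 ± 0.17 in sensitized controls, -4.07 ± 0.27 at 30 min, -4.28 ± 0.78 at 60 min and -2.88 ± 0.50 at 120 min (SD, n = 3).

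Other transcripts moved in the same libraries. Of 12 genes that glucocorticoids are known to induce, 10 had positive differences at 120 min against the sensitized controls, with a median of 0.75, and 1, the transcription factor Hif3a, was called by edgeR (2.90 ± 0.46, adjusted p 0.0152). Of all genes, 49.2% were positive and 1.26% called. Hif3a was at 7.53, 3.57 and 6.80 CPM in replicates 1, 2 and 3 of the 120 min group, and at 0.778 ± 0.432 CPM in sensitized controls (SD, n = 3). The co-chaperone Fkbp5 was at 381, 122 and 378 CPM at 120 min and at 44.1 ± 30.4 CPM in sensitized controls, a log2 difference of 2.73 ± 0.72 whose edgeR adjusted p was 0.094. Replicate 2 of the 120 min group was the lowest of its group for 9 of the 12 genes and the highest for the other 3, among them the clock gene Per1 at 168, 195 and 151 CPM. The share of all genes lowest in that replicate was not computed. Between 60 and 120 min Cebpd, 1 of the 12, was also called (1.31 ± 0.27, edgeR adjusted p 0.0371), with 1.12% of all genes called. All 7 tested Paneth cell markers had negative differences there. Their median was -1.43 against 60 min, with 5 called lower, and -1.29 against 30 min, with 4 called lower. Summed markers of T cells lay between 24.1 and 63.2 CPM at 120 min and between 69.0 and 231 CPM in sensitized controls. At 30 min they lay between 35.0 and 232 CPM and at 60 min between 38.8 and 150 CPM, both overlapping 120 min. None of the 14 T cell markers was called at 120 min against any of these groups. The part of these other changes in the rise of Angptl4 was not tested.

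**Figure D3:**
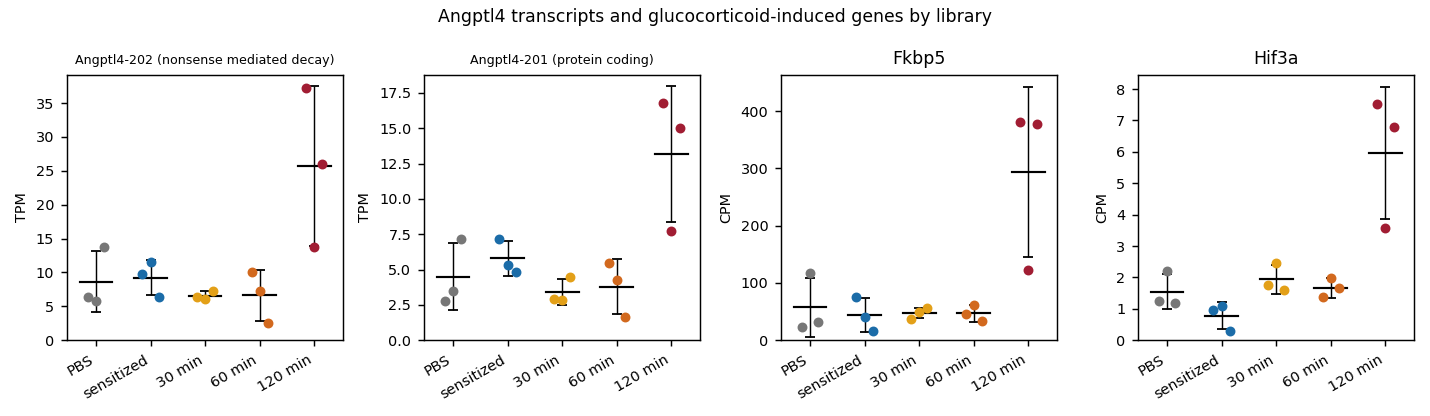
Levels of the Angptl4 transcripts in TPM and of Fkbp5 and Hif3a in CPM (vertical axes) in the 5 groups (horizontal axes), with 1 point per library, a line at the mean and a bar of 1 SD. In all 4 panels the 120 min group holds the highest mean and its replicate 2, the middle point, is the lowest of that group.

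Creb3l3 (chr10:81084324-81098874, minus strand) encodes the membrane-bound transcription factor. It stood at 170, 339 and 362 CPM in PBS mice and at 359, 354 and 327 CPM in sensitized controls, then at 233, 210 and 240 CPM at 30 min, 278, 253 and 196 CPM at 60 min and 426, 358 and 323 CPM at 120 min. The 30 and 60 min libraries were all below the sensitized and the 120 min libraries, but above replicate 1 of the PBS mice. On the log2 scale the difference from sensitized controls was -0.61 ± 0.22 at 30 min (edgeR adjusted p 0.941), -0.52 ± 0.22 at 60 min (0.349) and 0.09 ± 0.22 at 120 min (0.881). From 30 to 120 min the difference was 0.70 ± 0.22, 1.62-fold, with an adjusted p of 0.122 in edgeR and of 0.0391 in DESeq2. DESeq2 was the only 1 of 8 alternatives to call this difference, and 0 of 6 fits without 1 library did. With the brush border level as a covariate the difference was 0.50, with an edgeR adjusted p of 0.361. Ordered by mean, the groups ran from 30 min (227 ± 15.4 CPM) and 60 min (242 ± 42.2) to PBS mice (290 ± 105), sensitized controls (347 ± 17.5) and 120 min (369 ± 52.7), with each step within the spread of the groups (SD, n = 3).

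Cpt1a (chr19:3322334-3385733, plus strand), which sets the pace of fatty acid entry into mitochondria, had flat means. Group means lay between 329 ± 67.6 CPM in PBS mice and, at 60 min, a group of 419, 364 and 418 CPM, and every comparison had an absolute log2 difference of at most 0.24. At 120 min its libraries were far apart, at 274, 485 and 256 CPM, with replicate 2 the highest of all 15. That was the library with the lowest Angptl4 of its group.

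The mitochondrial dehydrogenases varied little between groups, and both were lowest within the 60 min group in replicate 3, the library with the most mitochondrially encoded transcripts. Acadm (chr3:153922357-153944632, minus strand), for medium-chain acyl-CoA, was at 140, 155 and 137 CPM in sensitized controls, 113, 115 and 126 CPM at 30 min, 128, 111 and 86.3 CPM at 60 min and 132, 149 and 115 CPM at 120 min. Its PBS libraries, at 113, 122 and 141 CPM, overlapped both the sensitized and the challenged ones. The difference from sensitized controls was -0.29 ± 0.14 at 30 min (edgeR adjusted p 0.976) and -0.41 ± 0.14 at 60 min (0.296). Without replicate 3 its 60 min mean was 120 CPM. Acadl (chr1:66830839-66863277, minus strand), for long-chain acyl-CoA, was at 205, 230 and 207 CPM in sensitized controls, 189, 189 and 223 CPM at 30 min, 209, 168 and 127 CPM at 60 min and 241, 231 and 218 CPM at 120 min. All 3 libraries at 120 min exceeded those at 60 min, and the difference of 0.45 ± 0.16 had an edgeR adjusted p of 0.155. Without replicate 1 of the 60 min group, the highest of its group, it was 0.61 with an adjusted p of 0.0343, and without replicate 3, the lowest, it was 0.26 with an adjusted p of 0.503. These fits called 1151 and 2 of all genes, against 168 in the main fit. The other 4 such fits gave 0.38 to 0.47 and no call of Acadl, with 0 to 298 of all genes called.

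Acaa2 (chr18:74779197-74806208, plus strand), the mitochondrial thiolase, and Ehhadh (chr16:21761287-21787807, minus strand), the peroxisomal enzyme, varied little between groups. Group means of Acaa2 ran from 156 ± 6.59 CPM at 60 min to 188 ± 14.2 CPM in sensitized controls (SD, n = 3). Those of Ehhadh ran from 85.0 ± 6.96 CPM at 30 min to 108 ± 2.35 CPM in sensitized controls. The largest difference of Ehhadh was at 30 min, -0.35 ± 0.14 with an edgeR adjusted p of 0.941. Replicate 1 of the PBS mice was the lowest of the 15 libraries for both, at 111 CPM for Acaa2 and 72.1 CPM for Ehhadh, and it was also the lowest for Creb3l3 and for Cyp4a10. That library had 12000 CPM of brush border markers, the lowest sum of the 15.

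Pdk4 (chr6:5483351-5496309, minus strand), the pyruvate dehydrogenase kinase of fasting, and Cyp4a10 (chr4:115518264-115533649, plus strand), the fatty acid hydroxylase, varied more within groups than between them. Pdk4 was at 61.1, 54.2 and 183 CPM in PBS mice, 83.6, 192 and 134 CPM in sensitized controls, 66.8, 51.7 and 86.2 CPM at 30 min, 114, 76.1 and 62.1 CPM at 60 min and 102, 177 and 75.1 CPM at 120 min. Cyp4a10 was at 2.01, 3.74 and 16.3 CPM in PBS mice, 4.31, 17.1 and 13.3 CPM in sensitized controls, 5.45, 4.36 and 9.39 CPM at 30 min, 7.50, 9.29 and 4.99 CPM at 60 min and 3.72, 14.9 and 4.55 CPM at 120 min. The libraries with the 4 highest levels were the same for both genes, and they were replicate 3 of the PBS mice, replicates 2 and 3 of the sensitized controls and replicate 2 of the 120 min group. The largest difference between groups was at 30 min against sensitized controls, -1.0 ± 0.50 for Pdk4 (edgeR adjusted p 0.979) and -0.85 ± 0.77 for Cyp4a10 (0.981). With such standard errors, changes of this size were not detectable here. Cyp4a10 has near-identical relatives among which reads can be split, so its values are uncertain. Its listed relatives Cyp4a31 and Cyp4a32 reached at most 0.799 and 0.326 CPM in any library.

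Across the 15 libraries the levels of the 9 genes were compared in pairs, with no background from pairs of other genes. Of 36 pairs, 33 had a positive Pearson correlation of log2 CPM, with a median of 0.58, and 19 had an adjusted permutation p under 0.05 (100000 resamples, Benjamini-Hochberg over the 36 pairs). For Pdk4 and Cyp4a10, r was 0.83 (two-sided permutation p 0.00015, adjusted 0.0026) and Spearman's rho 0.76 (p 0.0016, adjusted 0.0073). Without the 2 libraries farthest from the median of Pdk4, r was 0.73, and for deviations from the group means it was 0.89. For Acadm and Acadl, r was 0.85 (permutation p 0.00011, adjusted 0.0026) and rho 0.77 (p 0.0011, adjusted 0.0055), r was 0.69 without the 2 farthest libraries, and it was 0.91 for deviations from the group means. For Cpt1a and Cyp4a10, r was 0.72 (permutation p 0.0029, adjusted 0.0096) and rho 0.71 (p 0.0038, adjusted 0.012), 0.71 without the 2 farthest, and 0.76 for deviations. The lowest correlation was that of Cpt1a and Angptl4, at -0.3 (permutation p 0.28, adjusted 0.36) with a rho of -0.06 (p 0.83, adjusted 0.85), which was -0.23 without the 2 farthest libraries. The points of each pair share a library, its depth and its cell content. The permutations ran over all 15 libraries without regard to group. How many pairs of other genes correlate as strongly was not computed, so whether these counts are particular to the 9 genes is not known.

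**Figure D4:**
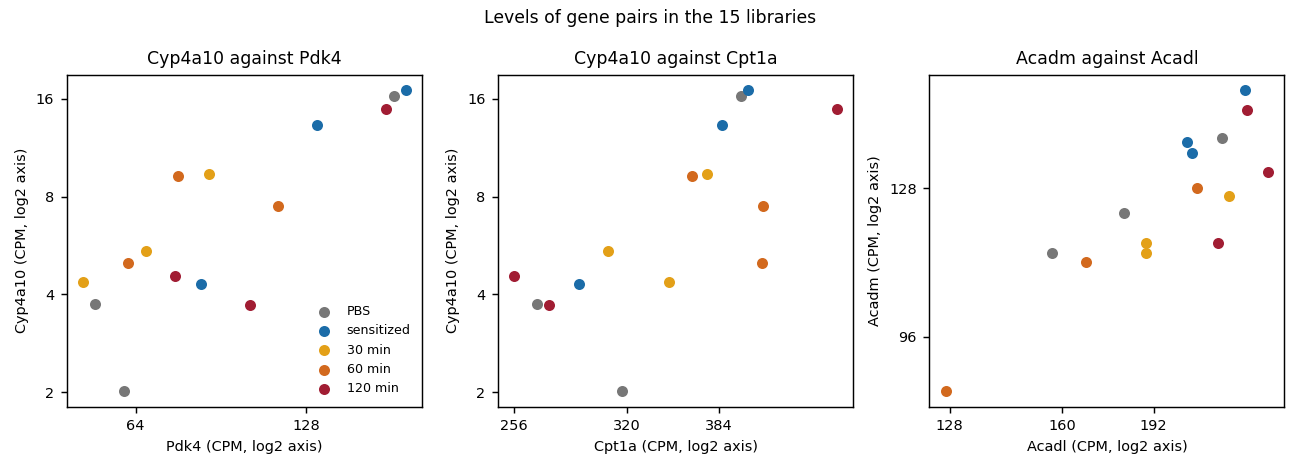
Levels of 3 gene pairs in CPM on log2 axes, with 1 point per library coloured by group. In the first panel the 4 libraries highest in Pdk4 and Cyp4a10 come from the PBS, sensitized and 120 min groups.

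Among 9550 tested genes with a mean of at least 5 CPM, the genes whose log2 CPM followed each of the 9 most closely over the 15 libraries are given as a description. For Cyp4a10 these included Hadhb of the mitochondrial trifunctional protein (r 0.86) and Hsdl2 (0.86). For Pdk4 they were Plin2, a lipid droplet coat protein (0.89), Hadhb (0.88) and Hsdl2 (0.86). For Creb3l3 they were Cidec, a lipid droplet protein (0.98), Tmem106a (0.94) and Rab30 (0.92), and for Cpt1a they were Acacb, the acetyl-CoA carboxylase whose product inhibits the Cpt1a enzyme (0.92), Nol4l (0.90) and Tmem184a (0.88). Ehhadh was followed most closely by Cndp1 (0.94), Slc34a2 (0.93) and catalase, Cat (0.92), Acaa2 by Pdgfa (0.88), Crybg2 (0.87) and Pfkl (0.86), Acadm by Cda (0.95), Cldn3 (0.95) and Slc25a25 (0.94), and Acadl by Tsc22d1 (0.93), Srf (0.93) and Gadd45a (0.92). For Angptl4 they were Leo1 (0.92), Pgm2 (0.91) and Ube2j2 (0.91).

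The rest of the pathway was taken from 9 lists with 122 other genes, of which 105 were tested, and 0 of the 105 were called by edgeR in any comparison. At an unadjusted p under 0.05 the count was 0 after sensitization, 12 at 30 min, 21 at 60 min, 12 at 120 min and 16 for 120 against 60 min. As shares of the 105 these were 11.4% at 30 min, 20% at 60 min, 11.4% at 120 min and 15.2% for 120 against 60 min, where 5.04%, 12.6%, 17.7% and 19.7% of all genes reached such a p. DESeq2 called at most 5 of the 105 in a comparison, at 120 against 30 min, with 838 of all genes. Limma-voom called at most 1, at 120 min and at 120 against 30 min, with 167 and 150 of all genes. At 30 min 84 of the 105 differences were negative, with a median of -0.16, and at 60 min 74 were, with a median of -0.15, against medians of 0.01 and -0.02 over all genes. Both use the same sensitized controls, whose own differences from the PBS mice were positive for 81 of the 105, with a median of 0.12. Receptor transcripts themselves were flat. Ppara was at 38.4 ± 7.02 CPM in sensitized controls and 36.4 ± 14.1, 41.2 ± 8.80 and 39.7 ± 9.02 CPM at 30, 60 and 120 min (SD, n = 3). Ppard, the form that is strong in intestine, was at 180 ± 9.99 CPM in sensitized controls and 193 ± 16 CPM at 120 min, and Pparg at 4.89 ± 0.669 and 5.77 ± 0.422 CPM. Among 13 tested receptors and cofactors, the coactivator and phosphatidate phosphatase Lpin1 came nearest to the threshold. It was at 8.0, 10.2 and 12.5 CPM in sensitized controls and 19.1, 19.2 and 23.8 CPM at 120 min, with no overlap, a log2 difference of 1.02 ± 0.24 and an edgeR adjusted p of 0.0511. The next by the joint test were the cofactors Nrip1 (0.54 ± 0.17, adjusted p 0.128), Med1 (0.20 ± 0.15, 0.526) and Ncor1 (0.04 ± 0.15, 0.937) at 120 min.

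Enzyme lists leaned to negative differences from the sensitized controls at the early times. All 16 tested genes of peroxisomal oxidation, of 18 listed, had negative differences at 30 min, with a median of -0.37, and at 60 min, with a median of -0.25, and 0 were called. In sensitized controls against PBS mice 14 of these 16 were positive, with a median of 0.18. All 19 brush border markers were negative at 30 min too, with a median of -0.41, and 15 of 19 at 60 min, with a median of -0.1. Eci3, a peroxisomal enoyl-CoA isomerase, was at 21.2 ± 2.79 CPM in sensitized controls and 12.0 ± 1.88 CPM at 30 min (-0.82 ± 0.19, edgeR adjusted p 0.876), and the thiolase Acaa1b at 18.8 ± 1.75 and 10.7 ± 0.565 CPM (-0.81 ± 0.32, 0.941). Decr2 and Phyh differed at 30 min by -0.33 ± 0.17 and -0.38 ± 0.16. In mitochondrial β-oxidation 18 of 22 differences were negative at 30 min and 18 at 60 min, with medians of -0.11 and -0.17. At 120 min the carnitine transferase Cpt2 differed by -0.52 ± 0.16 (edgeR adjusted p 0.108), whereas the fatty acid activating enzymes Acsl1, Acsl5 and Acsl3 differed by 0.31 ± 0.17, 0.30 ± 0.20 and 0.47 ± 0.19. Of 10 genes of ω-oxidation only 5 were tested, and all 5 were negative at 30 min, with a median of -0.52; Cyp4f14, Aldh3a2, Adh1 and Cyp4f15 differed there by -0.37 ± 0.23, -0.29 ± 0.14, -0.54 ± 0.37 and -1.36 ± 0.78. Among the 7 ketone body genes, the nearest to a call in the joint test, the monocarboxylate transporter Slc16a1, differed by 0.26 ± 0.13 at 120 min.

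Other PPAR targets, 17 of 22 tested, were negative in 15 of 17 cases at 30 min, with a median of -0.31. In sensitized controls against PBS mice 16 of the 17 were positive, with a median of 0.2. Cidec, the lipid droplet protein, traced the course of Creb3l3 at 66.1 ± 3.6 CPM in sensitized controls, 35.0 ± 3.01 at 30 min, 38.5 ± 11.8 at 60 min and 67.1 ± 8.58 at 120 min (SD, n = 3), with an edgeR adjusted p of 0.171 in the joint test. The fatty acid binding proteins Fabp1 and Fabp2 differed at 60 min by -0.99 ± 0.33 and -0.64 ± 0.29, and the uncoupling protein Ucp2 by -0.41 ± 0.14. Around Pdk4, the phosphatase Pdp1, which reverses the action of the Pdk enzymes, was at 19.2 ± 3.27 CPM in sensitized controls and 37.0 ± 7.11 CPM at 120 min (0.94 ± 0.34, edgeR adjusted p 0.177), and Pdk2 differed by -0.43 ± 0.19. The pyruvate dehydrogenase subunits Dlat and Pdhb differed at 120 min by 0.37 ± 0.14 and 0.01 ± 0.21, and Pdhb at 60 min by -0.51 ± 0.21. Of the 9 listed genes of lipoprotein lipase control 6 were tested, and Angptl8, Apoc2 and Apoc3 had 120 min differences of -0.37 ± 0.40, -0.49 ± 0.38 and -0.14 ± 0.41 and 60 min differences of -1.10 ± 0.40, -1.14 ± 0.39 and -0.90 ± 0.41, while Angptl6 was under 1 CPM on average in every group. In the CREB3 list, 12 of 15 tested, Creb3 differed by -0.50 ± 0.15 at 60 min (edgeR adjusted p 0.246) and Creb3l2 by -0.69 ± 0.25 at 120 min (0.176). None of these genes passed the edgeR test.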

How the data were processed

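Polyadenylated RNA of 15 libraries was quantified by the authors. Per the submitters' processing notes, cutadapt 1.18 and Salmon 1.2.1 were used with mm10; which annotation release they used was not given in the sources used here. The deposited tables hold, per the file headers and for 139058 transcripts, an estimated count of reads and a TPM, an abundance per length scaled to a common total. The lengths and effective lengths in other columns are, per the file headers, in bases.

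Transcripts were summed to 52844 genes with GENCODE M21 (GRCm38); 137943 IDs matched, and 1115 did not and were left out. Sums were rounded. Genes kept by filterByExpr (14968) were tested with edgeR 4.0.16 in R 4.3.3, with TMM scaling, a mean per group over all 15 libraries, 10 residual degrees of freedom and robust quasi-likelihood fits, at a common biological coefficient of variation of 0.26. DESeq2 1.42.0 and limma 3.58.1 (voom) were alternatives, as were other scaling, no filter, a transcript-length offset, brush border level as a covariate, fits with only the groups compared, PBS mice as control, and leaving out each library. Log2 CPM used a prior count of 2. The authors' TPM was used for levels between genes and for transcript shares, and not tested.

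The 9 genes and all lists were chosen with earlier results of these data known. Named pathway genes were those past the threshold or, where a list had none, up to 4 by the smallest p of the joint test, plus Ppara, Ppard and Pparg; 1 further gene is not reported here. The 3 genes most like each of the 9 were those with the highest Pearson r. Hif3a, Fkbp5, Per1, Cebpd, Krt20, Cyp4a31 and Cyp4a32 were named after their values were seen.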

Additional observations from a re-analysis of the deposited data

Results flagged for a closer look

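The change of Angptl4 against the sensitized controls differed between times after challenge by the edgeR test. Its 120 min and 60 min effects had opposite signs (1.11 and -0.60 on the log2 scale), and the test of the difference itself gave 1.71 ± 0.31 (SE) with an edgeR adjusted p of 0.0272; all 3 libraries at 120 min were above the 3 at 60 min. Its 120 min and 30 min effects (1.11 and -0.68) differed by 1.78 ± 0.31, with an edgeR adjusted p of 0.031 and again no overlap. Over the other alternatives the adjusted p of the first ran from 5.2e-06 to 0.131 and of the second from 2.2e-06 to 0.105. With 1 library left out, only 2 of 6 fits kept each call, with edgeR adjusted p up to 0.132 and 0.138. The fits that lost it called 0 to 2 of all genes against 60 min and 4 to 59 against 30 min. None of the 3 effects at single times was itself called, with edgeR adjusted p of 0.0903 at 120 min, 0.432 at 60 min and 0.967 at 30 min.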

How the results depend on the processing

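No paired analysis was possible because replicate numbers only name the libraries and tie none of them across groups. Over 72 differences of the 9 genes and 1098 values under alternatives, 1048 kept their sign and 50 changed it, and 0 changed it while past the threshold. The call of Angptl4 depended on the setting, and the cause was not tested. Without the filter on low counts, 0 of the 9 genes were called at 120 against 60 min, at 120 against 30 min or jointly (adjusted p of Angptl4 0.0567, 0.0538 and 0.0582). Of all genes, 279, 214 and 386 were called there. With the brush border covariate, 0 of the 9 were called at 120 against 30 min (0.105, with a difference of 1.75 against 1.78) and jointly (0.0916), while 120 against 60 min kept its call (1.69, adjusted p 0.0465). In these comparisons, in this order, 13, 46 and 169 of all genes were called with the covariate. With only the groups compared in the fit, 0 of the 9 were called at 120 against 60 min (0.131) and at 120 against 30 min (0.0928). Such fits called 0 and 4 of all genes. Angptl4 was called at 120 min, as 1 of the 9, against PBS mice as control (1.42, adjusted p 0.0456) and by DESeq2 (adjusted p 0.00711). DESeq2 called 2 of the 9, Angptl4 and Creb3l3, at 120 against 30 min and jointly. With single libraries left out, the number called ran from 0 to 2 at 120 against 60 min, from 0 to 1 at 120 against 30 min, from 0 to 1 at 120 min and from 0 to 1 jointly. Over all genes it ran from 0 to 1151, from 4 to 67, from 7 to 240 and from 0 to 356. Each of the 3 sensitized controls, both replicates 1 and 2 of the 30 min group, replicate 2 of the 60 min group and replicates 1 and 3 of the 120 min group ended the joint call.

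Of the 105 pathway genes, where 0 were called, Lpin1 made 1 call at 120 min with DESeq2 size factors, without the filter and by limma-voom, which also gave 1 at 120 against 30 min. Of all genes, these settings called 220, 282 and 167 at 120 min, and limma-voom 150 at 120 against 30 min. Without the filter 3 of the 105 were called at 120 against 30 min (Acsl1, Acsl5, Lpin1) and 1 jointly, with 214 and 386 of all genes. The brush border covariate gave 3 at 120 min (Creb3l2, Lpin1, Pdk2) and 1 at 120 against 60 min, with 309 and 169 of all genes. Fits with only the groups compared gave 2 at 120 min (Creb3l4, Lpin1), with 134 of all genes. DESeq2 called 2 at 120 min (Cpt2, Lpin1), 2 at 120 against 60 min (Pdp1, Ucp2), 5 at 120 against 30 min and 4 jointly. Of all genes it called 815, 941, 838 and 1082. With single libraries left out, the pathway counts ran from 0 to 4 at 60 min, 0 to 6 at 120 against 60 min and 0 to 3 jointly, each highest without replicate 1 of the 60 min group, and from 0 to 1 at 120 min and at 120 against 30 min. Without replicate 1 of the 60 min group, 385 of all genes were called at 60 min, 1151 at 120 against 60 min and 356 jointly. Over all genes, 188 were called at 120 min, 168 at 120 against 60 min and 151 at 120 against 30 min, against 815, 941 and 838 by DESeq2 and 34, 46 and 32 with the offset for transcript length. With TPM in place of CPM, 4 of the 9 genes kept the order of their group means. Depth limits Cyp4a10 most, which had from 37 to 317 counts per library, whereas Cpt1a had from 4720 to 9088.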

Other observations

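The transcripts within each gene held a pair of features that the gene sums hide, given here as estimates by Salmon with no test. Most of the Angptl4 TPM, 63.7% on average (53.6% to 68.7% over the 15 libraries), was assigned to Angptl4-202, a form of 1859 bases annotated as a target of nonsense-mediated decay, and 35.4% to the protein-coding Angptl4-201. Both forms were higher at 120 min. Angptl4-202 went from 9.21 ± 2.61 TPM in sensitized controls to 25.7 ± 11.8 TPM (SD, n = 3) and Angptl4-201 from 5.78 ± 1.24 to 13.2 ± 4.82 TPM, while the share of Angptl4-202 was 59.8% ± 7.65 and 65.0% ± 2.84.

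In Pdk4, a short retained-intron transcript, Pdk4-202, took 35.3%, 14.0% and 32.9% of the gene's TPM in replicates 1, 2 and 3 at 120 min, and at most 3.57% at 30 min. It reached 32.0% in replicate 3 of the 60 min group and 21.2% in replicate 1 of the PBS mice. These shares rest on few reads, 60.7, 23.5 and 38.3 estimated counts at 120 min, against 2100, 3290 and 1630 for the main transcript Pdk4-201, so that TPM and counts weigh it very differently. Creb3l3 also had a retained-intron form, Creb3l3-203, with 22.4% of its TPM on average. Acadl, Acaa2, Ehhadh and Cyp4a10 had nearly all of their TPM in a single transcript each.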
